A study of Mus musculus with 12 samples.

Results

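Mitosis and chromosome condensation genes encode the machinery that divides a cell: the kinase CDK1 and its cyclins, the mitotic kinases, the kinetochore and its checkpoint, the spindle motors, the cytokinesis apparatus and the proteins that pack chromosomes. The 41 genes described here were chosen by name from this machinery, as all rows of the deposited tables with 1 of those names, and their counts were summed per gene. The choice was made with earlier results of these data known. Of the 41, 40 had counts in the tables of both compartments (Ect2, a cytokinesis regulator, was not analysed here), out of 16617 genes in all. A filter on low counts kept 39 of the 41 and 15990 genes in all. Smc2, a condensin ATPase, was the member in both tables that did not pass, with 0 to 21 counts per library.

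RNA was sequenced from cultures of dorsal root ganglion (DRG) cells, which come from the sensory ganglia beside the spinal cord, of adult C57B6 mice. The ganglia of 1 mouse gave each culture, which grew for 3 days on an insert whose 1 µm pores pass neurites but hold back cell bodies, so that neurites and soma were collected apart. The genotype was GAR+/+ (WT below) or GAR+/- (het below), the latter with 1 changed copy of nucleolin, an RNA-binding protein whose glycine- and arginine-rich tail is called the GAR domain. There were 3 libraries for each of WT soma, het soma, WT neurites and het neurites, 12 in all, and in every list of 3 values below they stand in the order of their labels' numbers 1, 2 and 3. Library totals ran from 14965973 to 32434916 counts, and levels are given as CPM, counts relative to the scaled library total, on which 3 counts are worth 0.0905 to 0.21 CPM. Ncl, the nucleolin gene, was counted as a whole and stood at 218, 237 and 239 CPM in WT soma, 251, 258 and 290.2 in het soma, 463, 415 and 322 in WT neurites and 426, 382 and 332 in het neurites, which does not show the GAR domain.

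The tissue label was checked against marker genes. All 23 neuronal markers were counted in every library, with summed levels of 16920 to 19490 CPM in WT soma and 12830 to 16380 CPM in WT neurites. The libraries were not pure neuronal RNA. Markers of satellite glia, the cells that wrap sensory neurons, summed to 1625 to 2179 CPM in WT soma and 2410 to 2661 CPM in WT neurites, those of Schwann cells to 2452 to 2839 and 2297 to 2654 CPM, and those of fibroblasts to 1787 to 2727 and 1545 to 3454 CPM. No tested marker stood at 0 in any library.

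Mature sensory neurons have left the cell cycle, whereas glia and fibroblasts of a dissociated ganglion can divide in culture. Most mitosis genes are transcribed only as a cell nears division. The DREAM complex holds them off in resting cells, and B-MYB and FOXM1 with the MuvB core switch them on, at a promoter element called the cell cycle genes homology region (CHR). Many of these promoters also carry CCAAT boxes, which the factor NF-Y binds. In bulk RNA, fewer dividing cells and less RNA per dividing cell cannot be told apart, and in CPM a level is relative to all other RNA in the library.

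The promoters were read for these elements because the members moved in 1 direction between genotypes. RefSeq promoters of GRCm38.p6 were found for 35 of the 41 genes, of which 33 were tested. The counts below use 1 promoter per gene, the first listed. Prc1 has a second promoter in the table, with a CHR match 24 bases before its start, and is counted here as having none. The 250 bases before the start were searched on both strands for CHR (TTTGAA or TTCGAA) and CCAAT, motifs that share no position with each other. CHR was in 16 of the 33 (48.5%), beside 12% of the 10876 tested genes with a promoter, and CCAAT in 24 (72.7%), beside 35.7%. Both were in 12 (36.4%), beside 4.63%, and 2 or more CCAAT matches in 14 (42.4%), beside 13%. In 10 of the 33 the CHR match nearest the start ended within 9 to 24 bases of it. The last 150 bases before the start are printed for 7 members, chosen after their values were seen, to show 6 with a match and 1, Anln, without. Each runs 5′ to 3′ on the gene's strand, and capitals mark a CHR or CCAAT match on either strand (TTCAAA and ATTGG are the reverse letters).
Top2a (chr11:99024190-99024339, minus strand): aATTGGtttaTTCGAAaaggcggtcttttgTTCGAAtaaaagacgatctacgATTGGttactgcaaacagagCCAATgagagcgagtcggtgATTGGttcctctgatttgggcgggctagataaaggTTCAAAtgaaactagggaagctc
Mki67 (chr7:135716380-135716529, minus strand): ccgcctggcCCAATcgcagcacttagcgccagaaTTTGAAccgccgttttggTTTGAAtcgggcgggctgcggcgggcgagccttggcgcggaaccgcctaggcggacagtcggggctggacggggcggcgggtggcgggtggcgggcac
Cdk1 (chr10:69352913-69353062, minus strand): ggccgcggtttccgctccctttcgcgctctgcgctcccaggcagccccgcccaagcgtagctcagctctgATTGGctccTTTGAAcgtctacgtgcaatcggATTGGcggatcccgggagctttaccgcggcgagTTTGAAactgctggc
Cdc20 (chr4:118437344-118437493, minus strand): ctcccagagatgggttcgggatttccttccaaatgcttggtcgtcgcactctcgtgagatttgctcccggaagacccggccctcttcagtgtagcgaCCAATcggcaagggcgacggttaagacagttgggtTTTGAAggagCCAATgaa
Kif11 (chr19:37376232-37376381, plus strand): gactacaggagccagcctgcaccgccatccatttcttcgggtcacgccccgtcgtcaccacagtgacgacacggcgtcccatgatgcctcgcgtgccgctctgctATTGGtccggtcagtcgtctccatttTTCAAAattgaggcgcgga
Ncapg2 (chr12:116405286-116405435, plus strand): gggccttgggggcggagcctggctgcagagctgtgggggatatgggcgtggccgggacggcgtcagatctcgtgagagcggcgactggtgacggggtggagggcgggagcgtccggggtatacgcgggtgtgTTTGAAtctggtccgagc
Anln (chr9:22389207-22389356, minus strand): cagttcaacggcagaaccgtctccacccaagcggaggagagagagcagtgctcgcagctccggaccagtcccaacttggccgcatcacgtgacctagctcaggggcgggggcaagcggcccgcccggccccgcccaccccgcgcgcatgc

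The changes between genotypes, described further on, were set beside the motifs as a description. Absence of a match says only that these letters are not in the window. With CHR, 11 of 16 members fell in het neurites, and the median change was -1.25 on the log2 scale, with a highest of -0.03. Without CHR in the promoter used, 9 of 17 fell, Prc1 among them, with a median of -1.21 and a highest of -0.57. Kif22, the member that differed least between genotypes, has a CHR match ending 11 bases before its start, and Anln, which fell, has neither motif.

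The first question was whether these genes differ between the genotypes. They were lower in het. In neurites, 23 of the 39 fell and 0 rose at an adjusted p under 0.05 (edgeR's quasi-likelihood test, Benjamini-Hochberg adjustment over all 15990 genes), while 2.78% of all genes fell and 0.494% rose. All 39 log2 fold changes of het over WT were below 0, as were 51.5% of all genes. At an unadjusted p under 0.05, 35 of the 39 were lower, against 13.2% of all genes. The median over the 39 was -1.21, a 2.31-fold lower level, with the middle of the list between -1.36 and -1.01, beside a median of -0.01 over all genes. In 25 of the 39 each het neurite library lay below each WT neurite library, as in 10.8% of all genes. Without TMM scaling 14 fell, without the filter on low counts 24, with DESeq2 32 (5.77% of all genes) and with limma voom 22 (3.04%). Single libraries decided the call, since leaving 1 out changed the count to 2 without WT neurites 1, 32 without WT neurites 2, 29 without het neurites 1, and 0 without WT neurites 3, het neurites 2 or het neurites 3. Over all genes those counts were 50, 1767, 1110, 0, 0 and 0, beside 523 with every library. The median over the 39 stayed between -1.43 and -1.05 in these 6 fits. Fitted on the 6 neurite libraries alone, 0 were called, and the same held with all transcripts of the neurite table.

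In soma the differences had the same sign, but edgeR called 0 of the 39 with an adjusted p under 0.05, as it called 0% of all genes. All 39 were again below 0 (48.5% of all genes), with a median of -1.03 beside 0.01 over all genes and the middle of the list between -1.16 and -0.86. At an unadjusted p under 0.05, 33 of the 39 were lower, as were 7.05% of all genes. The same number, 33, had each het soma library below each WT soma library, against 11.9% of all genes. Here same-numbered libraries deviated together and were taken as paired, although the labels do not say that the numbers mark a pairing. With the number as a block 31 of the 39 fell (3.09% of all genes). DESeq2 called 27 lower (1.93%), limma voom 0, and a fit of the 6 soma libraries alone 21 (2.41%). Leaving out any 1 soma library gave 0 calls and medians between -1.18 and -0.84. In the authors' deposited table of soma, 45 of 73 transcripts of the members were lower at a false discovery rate under 0.05 and 0 were higher, beside 3.45% of all its transcripts lower. In the authors' deposited table of neurites, 38 of 76 were lower and 0 higher, beside 2.64%.

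**Figure D1:**
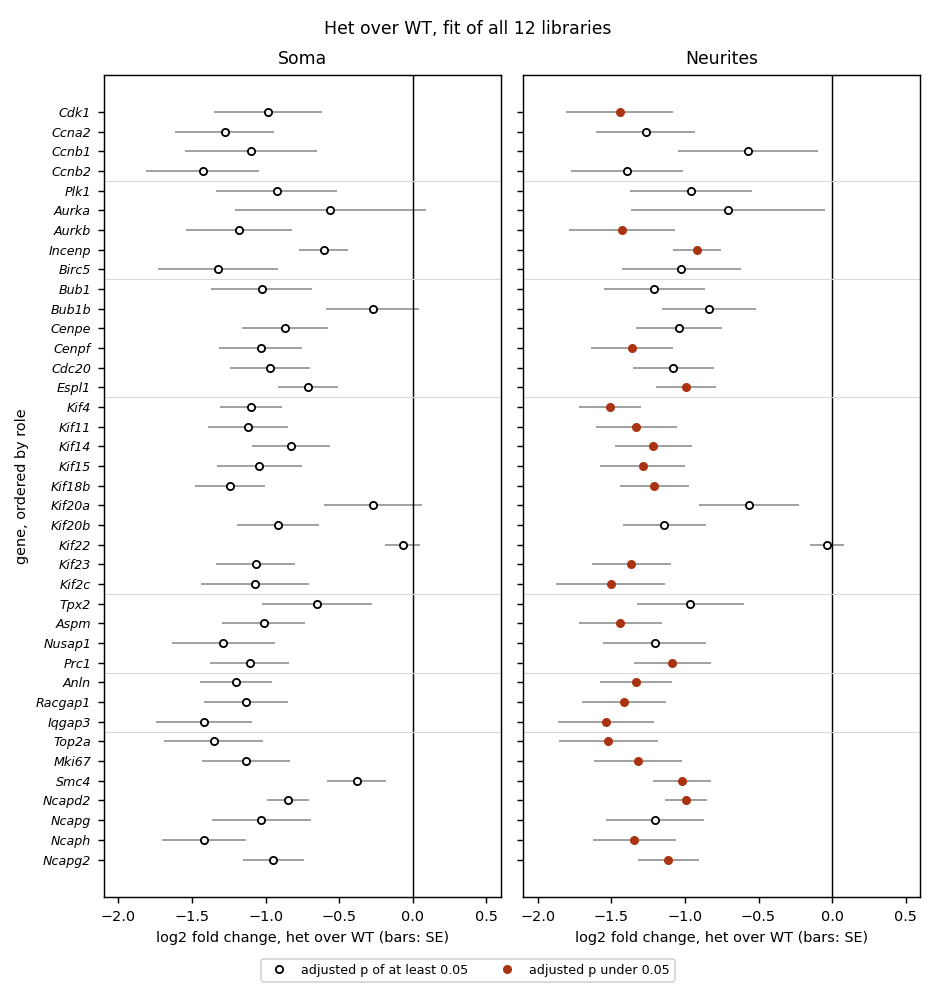
Log2 fold change of het over WT (x axis) with its standard error for the 39 tested genes (y axis, ordered by role), in soma on the left and neurites on the right. Filled points have an adjusted p under 0.05, of which there are 0 in soma and 23 in neurites, and all 39 points lie below 0 on both sides.

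The 39 genes varied alongside each other across libraries. Their summed level was 1502, 1305 and 1895 CPM in WT soma and 829, 654 and 837 CPM in het soma. In neurites the sum was 2713, 1659 and 2797 CPM in WT and 1373, 834 and 873 CPM in het. The 4 groups overlapped in part, the highest het neurite library lying above the lowest WT soma library. The number 2 library was the lowest of its group for 36 of the 39 genes in WT soma, 35 in WT neurites, 34 in het soma and 27 in het neurites. The WT neurites 3 library was the highest of all 12 for 25 genes and het soma 2 the lowest for 30. Between libraries of the same number, the WT soma sum was 1.81, 1.995 and 2.26 times that of het soma, and all 3 such pairs were higher in WT for 34 of the 39 genes.

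**Figure D2:**
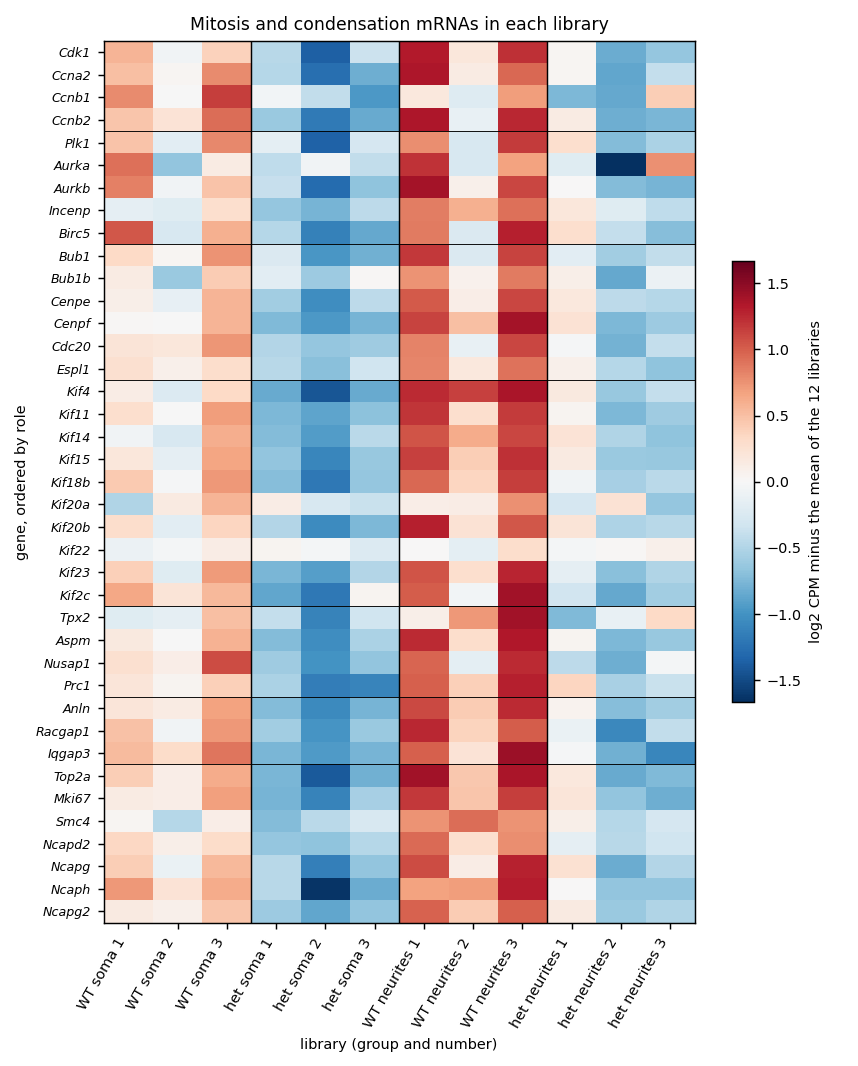
Heat map of the 39 tested genes (rows, ordered by role) in the 12 libraries (columns, by group), coloured by the log2 difference of each library from the gene's mean over all libraries. WT neurite libraries 1 and 3 carry the highest values for most genes, het soma library 2 the lowest, and Kif22 shows little variation.

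CDK1 and its cyclins form the kinase that starts mitosis. Gene positions are those of GENCODE M21 on GRCm38. Cdk1, the catalytic subunit, lies at chr10:69335146-69352938. Cdk1 stood at 1.92, 1.24 and 1.69 CPM in WT soma and at 0.935, 0.505 and 1.01 CPM in het soma. Cdk1 in neurites stood at 3.22, 1.48 and 3 CPM in WT and at 1.33, 0.729 and 0.825 CPM in het. Each het library lay below each WT library of its compartment, and WT neurites 2 was far below the other two WT neurite libraries. For Cdk1, the log2 fold change of het over WT was -0.98 ± 0.366 (SE) in soma (adjusted p = 0.366), and in neurites it fell by 1.44 ± 0.364 (adjusted p = 0.0448). Ccna2, cyclin A2, which pairs with CDK1 and CDK2, lies at chr3:36564865-36572150. Ccna2 stood at 30.5, 22 and 37 CPM in WT soma and at 15.5, 9.05 and 12.2 CPM in het soma. Ccna2 in neurites stood at 54.9, 23.6 and 41.9 CPM in WT and at 22, 11.9 and 16.4 CPM in het. The WT and het libraries were apart in both compartments, in neurites by a small gap between WT 2 and het 1. For Ccna2, the log2 fold change of het over WT was -1.28 ± 0.336 (SE) in soma (adjusted p = 0.187, or 0.000237 with the replicate number as a block) and -1.26 ± 0.336 in neurites (adjusted p = 0.0685), short of the threshold in neurites. Ccnb2, a B-type cyclin, lies at chr9:70407692-70421547. Ccnb2 stood at 15.3, 13 and 21.1 CPM in WT soma and at 7.21, 4.89 and 6.19 CPM in het soma. Ccnb2 in neurites stood at 28.3, 10.2 and 26.5 CPM in WT and at 12.2, 6.29 and 6.52 CPM in het. Soma libraries were apart by genotype, whereas WT neurites 2 lay below het neurites 1. For Ccnb2, the log2 fold change of het over WT was -1.43 ± 0.383 (SE) in soma (adjusted p = 0.191, or 0.00546 with the replicate number as a block) and -1.39 ± 0.382 in neurites (adjusted p = 0.0738), short of the threshold in neurites. Ccnb1, the main mitotic B-type cyclin, was counted at only 0.321 to 1.38 CPM, at -1.10 in soma and -0.57 in neurites on the log2 scale. Of these 4 genes, 1 fell in neurites and all 4 had soma groups that did not overlap. Over all genes, 2.78% fell in neurites and 11.9% had each het soma library below each WT soma library. Of the 23 members called in neurites, in this role and those below, 0 stayed called with every library left out in turn.

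Plk1 and the Aurora kinases drive spindle formation, and Aurora B works in the chromosomal passenger complex with Incenp and Birc5. Incenp, the scaffold of the passenger complex, lies at chr19:9872296-9899551. Incenp stood at 40.7, 39.3 and 55 CPM in WT soma and at 28.9, 26.4 and 33.4 CPM in het soma. Incenp in neurites stood at 81.7, 67.9 and 85.2 CPM in WT and at 51.4, 39.3 and 33.8 CPM in het. Het libraries lay below WT in both compartments, and each neurite library of WT lay above each WT soma library. For Incenp, the log2 fold change of het over WT was -0.61 ± 0.165 (SE) in soma (adjusted p = 0.175, or 0.0265 with the replicate number as a block), and in neurites it fell by 0.92 ± 0.165 (adjusted p = 0.0188). Aurkb, the kinase of that complex, lies at chr11:69045647-69051664. Aurkb stood at 3.38, 1.82 and 2.63 CPM in WT soma and at 1.45, 0.777 and 1.19 CPM in het soma. Aurkb in neurites stood at 4.97, 2.02 and 4.09 CPM in WT and at 1.91, 1.15 and 1.11 CPM in het. The genotypes did not overlap in either compartment, with WT neurites 2 just above het neurites 1. For Aurkb, the log2 fold change of het over WT was -1.18 ± 0.358 (SE) in soma (adjusted p = 0.221, or 0.0112 with the replicate number as a block), and in neurites it fell by 1.43 ± 0.359 (adjusted p = 0.044). Plk1, polo-like kinase 1, lies at chr7:122159439-122169873. Plk1 stood at 7.31, 4.65 and 9.12 CPM in WT soma and at 4.68, 2.06 and 4.31 CPM in het soma. Plk1 in neurites stood at 8.96, 4.37 and 11.8 CPM in WT and at 6.37, 3.19 and 3.63 CPM in het. The number 2 libraries were the lowest in each group, and the genotypes overlapped in both compartments. For Plk1, the log2 fold change of het over WT was -0.92 ± 0.412 (SE) in soma (adjusted p = 0.527, or 0.0195 with the replicate number as a block) and -0.96 ± 0.414 in neurites (adjusted p = 0.212), short of the threshold in neurites. Birc5, survivin, stood at -1.33 in soma and -1.02 in neurites on the log2 scale (adjusted p = 0.254 and 0.17). Aurka, Aurora A, had 2 to 12 counts per library, and with so few counts no difference between genotypes was detected. Of the 5 genes in this role, 2 fell in neurites, beside 2.78% of all genes.

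The kinetochore joins chromosomes to the spindle, its checkpoint holds the cell until all are attached, and separase then cuts the sisters apart. Cenpe, a kinetochore motor, lies at chr3:135212537-135273611. Cenpe stood at 37.8, 32.2 and 52.5 CPM in WT soma and at 23.6, 17.2 and 26.2 CPM in het soma. Cenpe in neurites stood at 71.8, 38.1 and 76.5 CPM in WT and at 39.7, 26.1 and 25.4 CPM in het. Soma groups were apart, while WT neurites 2 fell just below het neurites 1. For Cenpe, the log2 fold change of het over WT was -0.87 ± 0.291 (SE) in soma (adjusted p = 0.336, or 0.0147 with the replicate number as a block) and -1.04 ± 0.29 in neurites (adjusted p = 0.0778), short of the threshold in neurites. Cenpf, a large outer kinetochore protein, lies at chr1:189640606-189688086. Cenpf stood at 24.5, 24.1 and 35.8 CPM in WT soma and at 14.6, 12.4 and 14.1 CPM in het soma. Cenpf in neurites stood at 52.7, 34.3 and 63.1 CPM in WT and at 28.6, 14.5 and 15.9 CPM in het. No het library reached a WT library of its compartment. For Cenpf, the log2 fold change of het over WT was -1.03 ± 0.28 (SE) in soma (adjusted p = 0.191, or 0.022 with the replicate number as a block), and in neurites it fell by 1.36 ± 0.279 (adjusted p = 0.0293). Bub1b, the checkpoint protein BUBR1, lies at chr2:118598211-118641591. Bub1b stood at 29.6, 17.5 and 36.1 CPM in WT soma and at 23.8, 17.7 and 27.4 CPM in het soma. Bub1b in neurites stood at 45.1, 28.2 and 49 CPM in WT and at 28.8, 14.9 and 25.1 CPM in het. Its soma groups overlapped, with WT soma 2 as low as the lowest het library, and in neurites WT 2 lay just below het 1. For Bub1b, the log2 fold change of het over WT was -0.27 ± 0.318 (SE) in soma (adjusted p = 0.854) and -0.84 ± 0.32 in neurites (adjusted p = 0.17), short of the threshold in neurites. Espl1, separase, lies at chr15:102296266-102324357. Espl1 stood at 22.6, 19.98 and 23 CPM in WT soma and at 13.6, 11.6 and 14.8 CPM in het soma. Espl1 in neurites stood at 33.1, 21.1 and 35.2 CPM in WT and at 19.96, 13.5 and 11.8 CPM in het. The genotypes were apart in both compartments, in neurites by a small gap. For Espl1, the log2 fold change of het over WT was -0.71 ± 0.204 (SE) in soma (adjusted p = 0.191, or 0.0179 with the replicate number as a block), and in neurites it fell by 0.99 ± 0.205 (adjusted p = 0.025). Bub1, a checkpoint kinase, stood at -1.03 in soma and -1.21 in neurites, and Cdc20, which activates the anaphase-promoting complex, at -0.97 and -1.08 (adjusted p in neurites = 0.0843 and 0.0501). Of the 6 genes, 2 fell in neurites (2.78% of all genes), and the soma groups of 5 did not overlap (11.9% of all genes).

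Kinesins are motors that slide, cross-link or shorten spindle microtubules, and 7 of the 10 fell in het neurites, beside 2.78% of all genes. Kif4, a chromokinesin that limits microtubule growth in the central spindle, lies at chrX:100625737-100727214. Kif4 stood at 51.4, 40.04 and 59.2 CPM in WT soma and at 26.2, 17.6 and 26.4 CPM in het soma. Kif4 in neurites stood at 112, 104 and 121 CPM in WT and at 52.5, 30.3 and 35.8 CPM in het. All 4 groups were apart within each comparison, with WT neurites highest, although het neurites 1 lay within the range of WT soma. For Kif4, the log2 fold change of het over WT was -1.10 ± 0.211 (SE) in soma (adjusted p = 0.102, or 0.000329 with the replicate number as a block), and in neurites it fell by 1.51 ± 0.211 (adjusted p = 0.0124). Kif11, the motor that pushes spindle poles apart, lies at chr19:37376403-37421859. Kif11 stood at 59.7, 48.8 and 79.3 CPM in WT soma and at 29.1, 26.6 and 30.6 CPM in het soma. Kif11 in neurites stood at 112, 59.2 and 110.1 CPM in WT and at 50.5, 29.2 and 32.4 CPM in het. Het libraries were below WT in each compartment. For Kif11, the log2 fold change of het over WT was -1.12 ± 0.273 (SE) in soma (adjusted p = 0.162, or 0.0039 with the replicate number as a block), and in neurites it fell by 1.33 ± 0.274 (adjusted p = 0.0308). Kif15, a motor that holds a bipolar spindle, lies at chr9:122951046-123018733. Kif15 stood at 37.8, 29.7 and 51.9 CPM in WT soma and at 21, 15.6 and 21.3 CPM in het soma. Kif15 in neurites stood at 72.9, 43.9 and 76.7 CPM in WT and at 36.8, 21.4 and 21.3 CPM in het. The separation by genotype held in soma and in neurites. For Kif15, the log2 fold change of het over WT was -1.04 ± 0.286 (SE) in soma (adjusted p = 0.196, or 0.00403 with the replicate number as a block), and in neurites it fell by 1.29 ± 0.286 (adjusted p = 0.0392). Kif14, a motor of cytokinesis, lies at chr1:136466343-136531511. Kif14 stood at 7.38, 6.39 and 11.7 CPM in WT soma and at 4.65, 4.04 and 5.64 CPM in het soma. Kif14 in neurites stood at 15.9, 11.8 and 16.6 CPM in WT and at 9.02, 5.41 and 4.83 CPM in het. Libraries of the 2 genotypes did not overlap. For Kif14, the log2 fold change of het over WT was -0.83 ± 0.263 (SE) in soma (adjusted p = 0.262, or 0.0448 with the replicate number as a block), and in neurites it fell by 1.22 ± 0.261 (adjusted p = 0.0276).

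The remaining kinesins with values past the threshold, or among the most abundant, were as follows. Kif18b, a motor that shortens astral microtubules, lies at chr11:102905529-102925124. Kif18b stood at 22.5, 16.3 and 27.4 CPM in WT soma and at 10.1, 7.22 and 10.6 CPM in het soma. Kif18b in neurites stood at 32.1, 21.2 and 36.9 CPM in WT and at 15.9, 11.2 and 12.1 CPM in het. Libraries of WT and het were apart in soma and in neurites. For Kif18b, the log2 fold change of het over WT was -1.24 ± 0.237 (SE) in soma (adjusted p = 0.102, or 0.000274 with the replicate number as a block), and in neurites it fell by 1.21 ± 0.236 (adjusted p = 0.0228). Kif23, a subunit of the centralspindlin complex, lies at chr9:61915905-61946774. Kif23 stood at 24.2, 15.9 and 30.1 CPM in WT soma and at 10.8, 9.67 and 13.1 CPM in het soma. Kif23 in neurites stood at 38, 22.3 and 44.1 CPM in WT and at 16.6, 11.3 and 12.9 CPM in het. No WT library was as low as a het library of the same compartment. For Kif23, the log2 fold change of het over WT was -1.07 ± 0.269 (SE) in soma (adjusted p = 0.162, or 0.000919 with the replicate number as a block), and in neurites it fell by 1.36 ± 0.27 (adjusted p = 0.025). Kif2c, a microtubule depolymerase at centromeres, lies at chr4:117159639-117182639. Kif2c stood at 2.5, 1.86 and 2.31 CPM in WT soma and at 0.875, 0.699 and 1.65 CPM in het soma. Kif2c in neurites stood at 3.22, 1.55 and 4.2 CPM in WT and at 1.27, 0.882 and 1.07 CPM in het. WT and het were apart, by a small margin in each compartment. For Kif2c, the log2 fold change of het over WT was -1.07 ± 0.366 (SE) in soma (adjusted p = 0.313, or 0.0431 with the replicate number as a block), and in neurites it fell by 1.50 ± 0.371 (adjusted p = 0.0411). Kif22, a chromokinesin that pushes chromosome arms, lies at chr7:127027729-127042471. Kif22 stood at 56.4, 59.2 and 66 CPM in WT soma and at 62.2, 59.1 and 51.7 CPM in het soma. Kif22 in neurites stood at 60.6, 54.1 and 73.9 CPM in WT and at 58.9, 61.4 and 64.2 CPM in het. The 4 groups overlapped. For Kif22, the log2 fold change of het over WT was -0.07 ± 0.118 (SE) in soma (adjusted p = 0.904) and -0.03 ± 0.118 in neurites (adjusted p = 0.904), short of the threshold in neurites. The 95% interval of that change ran from -0.32 to 0.18 in soma and from -0.29 to 0.22 in neurites, so a change as large as the median of the 39 lay outside both. Kif20b, a late-mitosis kinesin, stood at -0.92 in soma and -1.14 in neurites (adjusted p = 0.0501 in neurites). Kif20a, a motor of the central spindle, stood at -0.27 and -0.56, with overlapping groups. The groups of 8 of the 10 kinesins did not overlap in either compartment, beside 11.9% of all genes lower without overlap in soma and 10.8% in neurites.

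Spindle assembly factors nucleate and bundle spindle microtubules. Aspm, a spindle pole protein, lies at chr1:139454772-139494091. Aspm stood at 10.6, 9.45 and 14.1 CPM in WT soma and at 5.76, 4.62 and 6.56 CPM in het soma. Aspm in neurites stood at 22.5, 11.6 and 23.9 CPM in WT and at 9.82, 5.64 and 6.14 CPM in het. The genotypes were apart in both compartments, and WT neurites 2 was close to the level of WT soma. For Aspm, the log2 fold change of het over WT was -1.01 ± 0.281 (SE) in soma (adjusted p = 0.189, or 0.00498 with the replicate number as a block), and in neurites it fell by 1.44 ± 0.28 (adjusted p = 0.0228). Prc1, which cross-links the central spindle, lies at chr7:80294450-80316259. Prc1 stood at 11.6, 10.5 and 13.3 CPM in WT soma and at 7.03, 4.54 and 4.72 CPM in het soma. Prc1 in neurites stood at 20.3, 13.4 and 24.8 CPM in WT and at 13, 6.98 and 7.83 CPM in het. The separation was narrow in neurites, where WT 2 stood just above het 1. For Prc1, the log2 fold change of het over WT was -1.11 ± 0.267 (SE) in soma (adjusted p = 0.145, or 0.00256 with the replicate number as a block), and in neurites it fell by 1.09 ± 0.262 (adjusted p = 0.0428). Tpx2, an activator of Aurora A, stood at -0.65 in soma and -0.96 in neurites, and Nusap1, a microtubule-bundling protein, at -1.29 and -1.21 (adjusted p in neurites = 0.148 and 0.0792). Of the 4 genes, 2 fell in neurites (2.78% of all genes), and the soma groups of all 4 were apart (11.9% of all genes).

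Cytokinesis genes pinch the daughter cells apart, and the 3 tested here all fell in neurites, beside 2.78% of all genes. Anln, anillin, the scaffold of the contractile ring, lies at chr9:22332012-22389188. Anln stood at 106, 101 and 147 CPM in WT soma and at 55.9, 44.4 and 53.9 CPM in het soma. Anln in neurites stood at 197, 124 and 218 CPM in WT and at 95.7, 56.6 and 61.9 CPM in het. Each WT library was above each het library, and WT neurites 2 stood near WT soma. For Anln, the log2 fold change of het over WT was -1.20 ± 0.246 (SE) in soma (adjusted p = 0.113, or 0.00135 with the replicate number as a block), and in neurites it fell by 1.33 ± 0.247 (adjusted p = 0.0232). Racgap1, the partner of Kif23 in centralspindlin, lies at chr15:99620496-99651656. Racgap1 stood at 4.77, 3.25 and 5.61 CPM in WT soma and at 2.26, 1.71 and 2.2 CPM in het soma. Racgap1 in neurites stood at 8.12, 4.37 and 6.81 CPM in WT and at 3.13, 1.61 and 2.56 CPM in het. Levels were low, yet the genotypes did not overlap. For Racgap1, the log2 fold change of het over WT was -1.14 ± 0.285 (SE) in soma (adjusted p = 0.147, or 0.003 with the replicate number as a block), and in neurites it fell by 1.42 ± 0.286 (adjusted p = 0.0227). Iqgap3, a scaffold protein of proliferating cells, lies at chr3:88081971-88121048. Iqgap3 stood at 69.4, 59.4 and 89.1 CPM in WT soma and at 28.4, 25 and 28.1 CPM in het soma. Iqgap3 in neurites stood at 96.2, 56.6 and 129.6 CPM in WT and at 47.5, 27.7 and 22.7 CPM in het. The genotypes were apart in both compartments, and het neurites 1 was the library nearest to WT. For Iqgap3, the log2 fold change of het over WT was -1.42 ± 0.326 (SE) in soma (adjusted p = 0.153, or 0.0457 with the replicate number as a block), and in neurites it fell by 1.54 ± 0.327 (adjusted p = 0.038).

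Chromosome condensation genes held the members with the most counts, which grow with transcript length. Top2a, the topoisomerase that untangles sister chromatids, lies at chr11:98992943-99024189. Top2a stood at 230.0, 187 and 265 CPM in WT soma and at 102, 65.7 and 99.2 CPM in het soma. Top2a in neurites stood at 454, 235 and 445 CPM in WT and at 196, 96.9 and 103 CPM in het. WT and het were apart in each compartment, and WT neurites 2 was about as low as WT soma. For Top2a, the log2 fold change of het over WT was -1.35 ± 0.336 (SE) in soma (adjusted p = 0.18, or 0.00169 with the replicate number as a block), and in neurites it fell by 1.52 ± 0.337 (adjusted p = 0.0438). Mki67, the Ki-67 protein that coats mitotic chromosomes and marks cycling cells, lies at chr7:135689784-135716361. Mki67 stood at 247, 242 and 359.7 CPM in WT soma and at 132, 104 and 152 CPM in het soma. Mki67 in neurites stood at 508, 308 and 498 CPM in WT and at 258, 142 and 128 CPM in het. Het libraries stayed below WT libraries of the same compartment. For Mki67, the log2 fold change of het over WT was -1.13 ± 0.299 (SE) in soma (adjusted p = 0.191, or 0.0463 with the replicate number as a block), and in neurites it fell by 1.32 ± 0.301 (adjusted p = 0.0457). Smc4, a condensin ATPase, lies at chr3:69004738-69034623. Smc4 stood at 5.77, 4.03 and 6.05 CPM in WT soma and at 3.41, 4.12 and 4.68 CPM in het soma. Smc4 in neurites stood at 9.44, 10.7 and 9.46 CPM in WT and at 6, 4.03 and 4.62 CPM in het. In soma the genotypes overlapped, whereas in neurites all 3 WT libraries, number 2 included, lay above all het libraries. The counts of Smc4 were spread over 7 transcripts, the main one holding 42.5% of them. These transcripts did not move alike. In the authors' deposited comparison of het over WT they ran from -2.07 to 0.49 in neurites and from -0.81 to 0.47 in soma. For Smc4, the log2 fold change of het over WT was -0.38 ± 0.201 (SE) in soma (adjusted p = 0.614), and in neurites it fell by 1.02 ± 0.199 (adjusted p = 0.0224).

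Condensin subunits hold the ring in which chromosomes are looped. Ncapd2, a subunit of condensin I, lies at chr6:125168007-125191701. Ncapd2 stood at 95, 80.1 and 93.3 CPM in WT soma and at 48.1, 47.1 and 53.9 CPM in het soma. Ncapd2 in neurites stood at 144, 91.2 and 128 CPM in WT and at 68, 54.8 and 59.8 CPM in het. The groups did not overlap, and the het soma libraries lay close together. For Ncapd2, the log2 fold change of het over WT was -0.85 ± 0.144 (SE) in soma (adjusted p = 0.082, or 0.000419 with the replicate number as a block), and in neurites it fell by 0.99 ± 0.144 (adjusted p = 0.0124). Ncaph, the kleisin of condensin I, lies at chr2:127103809-127133954. Ncaph stood at 8.96, 6.35 and 8.32 CPM in WT soma and at 3.95, 1.75 and 3.07 CPM in het soma. Ncaph in neurites stood at 8.68, 8.81 and 13.5 CPM in WT and at 5.47, 3.45 and 3.46 CPM in het. Both compartments separated the genotypes. For Ncaph, the log2 fold change of het over WT was -1.42 ± 0.283 (SE) in soma (adjusted p = 0.102, or 0.00117 with the replicate number as a block), and in neurites it fell by 1.34 ± 0.281 (adjusted p = 0.025). Ncapg2, a subunit of condensin II, lies at chr12:116405402-116463731. Ncapg2 stood at 134, 128 and 168 CPM in WT soma and at 79.6, 66.4 and 77.1 CPM in het soma. Ncapg2 in neurites stood at 239.6, 163 and 243 CPM in WT and at 135, 78.8 and 85.5 CPM in het. No overlap was seen in either compartment. For Ncapg2, the log2 fold change of het over WT was -0.95 ± 0.205 (SE) in soma (adjusted p = 0.114, or 0.0013 with the replicate number as a block), and in neurites it fell by 1.11 ± 0.205 (adjusted p = 0.0224). Ncapg, a condensin I subunit, stood at -1.03 in soma and -1.20 in neurites (adjusted p in neurites = 0.0753). Of the 7 tested genes of this role, 6 fell in neurites, beside 2.78% of all genes. The smallest adjusted p of all members in soma was 0.082, for Ncapd2, by edgeR without the block.

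**Figure D3:**
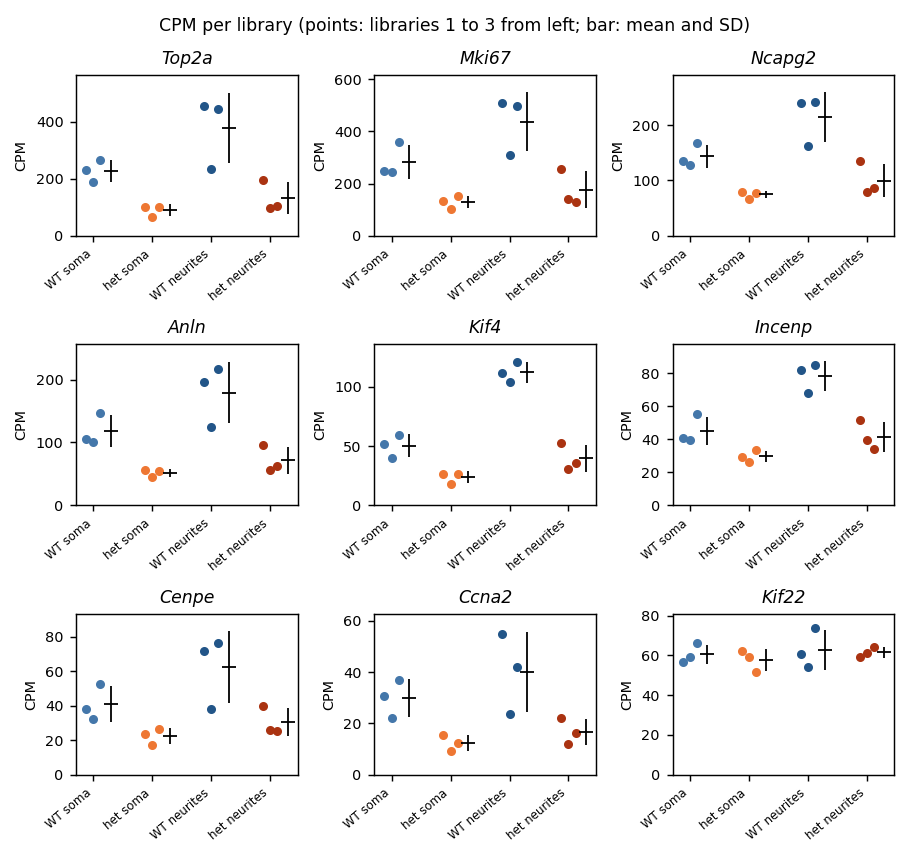
CPM (y axis, from 0) of selected members in each library, grouped along the x axis by genotype and compartment, with points for libraries 1 to 3 and a bar for the mean ± SD of each group. Top2a and Mki67 lie lower in het than in WT in each compartment, and Kif22 lies at like levels in all 4 groups.

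A second question was how the levels of these transcripts differ between neurite and soma libraries. In WT, 38 of the 39 genes were higher in neurites by their fitted value (50.7% of all genes), and 3 rose by the test: Kif4 by 1.16 ± 0.209 (adjusted p = 0.0143), Incenp by 0.80 ± 0.164 (0.02) and Smc4 by 0.90 ± 0.197 (0.026) on the log2 scale, in edgeR's fit. These calls stand beside 2.41% of all genes higher and 0.688% lower, and 0 members were lower. The median over the 39 was 0.56, beside 0.01 over all genes, and 15 were higher at an unadjusted p under 0.05, beside 11.4%. Ccnb1 (-0.40) was the gene below 0. All 3 WT neurite libraries lay above all WT soma libraries in 5 genes, beside 12.4% of all genes, so that share does not stand apart from the background. Same-numbered WT libraries were taken as paired, and with the number as a block 17 rose (5.98% of all genes). With DESeq2 9 rose (4.87%). Fitting only the 6 WT libraries left 1. Leaving out 1 library gave 0 calls without WT soma 1 or 2, 4 without WT soma 3, 1 without WT neurites 1, 10 without WT neurites 2 and 2 without WT neurites 3. The summed level of the WT neurite library was 1.81, 1.27 and 1.48 times that of the WT soma library of the same number. In this contrast the median log2 fold change was 0.58 for satellite glia markers and 0.40 for Schwann cell markers. It was 0.17 for endothelium and pericytes, 0.11 for fibroblasts, -0.36 for macrophages and -0.38 for neurons. The part of other cells in the members' neurite levels was not tested.

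In het, edgeR called 0 of the 39, beside 0.544% of all genes higher and 0.0938% lower. At an unadjusted p under 0.05, 3 were higher (7.64% of all genes): Kif4 (0.75 ± 0.211), Incenp (0.49 ± 0.165) and Prc1 (0.75 ± 0.269). DESeq2 called 1 and limma voom 0. Blocking on the replicate number gave 3 higher (2.53% of all genes). Blocking on the culture, taken from genotype and number, gave 6 (2.55%). The median over the 39 was 0.37, beside -0.01 over all genes, and 37 of the 39 were above 0, against 49.2% of all genes. In 6 genes the het neurite libraries lay above all het soma libraries, beside 11.7% of all genes. The difference between the compartments was then compared between genotypes. The interaction, the het change minus the WT change, had 0 of 39 calls in edgeR, 0 in DESeq2 and 0 in limma voom, as did 0% of all genes in edgeR. At an unadjusted p under 0.05 it had 1, Smc4 (-0.64 ± 0.283 on the log2 scale), beside 1.26% of all genes, and its median over the 39 was -0.18. A different neurite-to-soma change in het was therefore not detected at this depth and number of libraries.

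**Figure D4:**
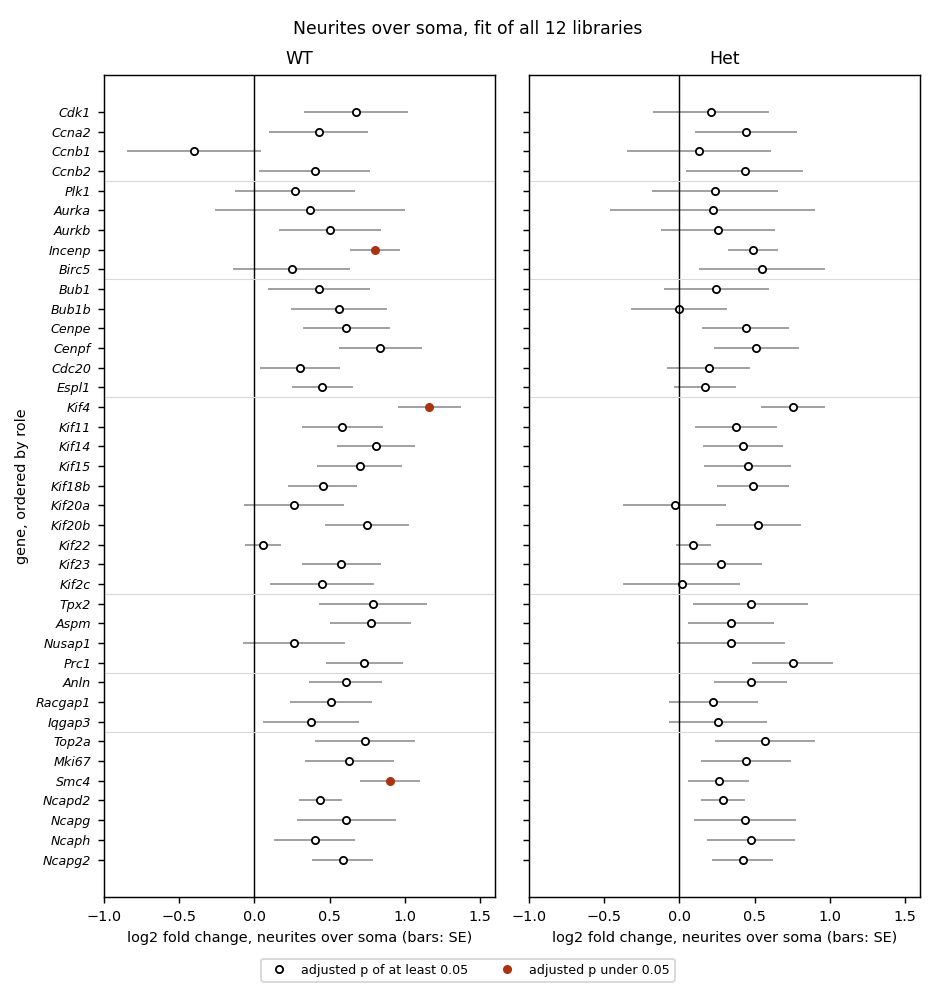
Log2 fold change of neurites over soma (x axis) with its standard error for the 39 tested genes (y axis, ordered by role), in WT on the left and het on the right. Most points lie above 0, and the filled ones, with an adjusted p under 0.05, are Kif4, Incenp and Smc4 in WT and none in het.

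Levels between genes can be set side by side only per length, and here only roughly. Per kilobase of the main transcript and averaged over all libraries, Cdk1 stood at 0.341 CPM and Ccnb2 at 8.58. The deposited counts are per transcript, and how reads shared by several transcripts were counted is not given in the sources used here. Members with 5 or more annotated transcripts had a median of 3.48 CPM per kilobase (n = 30), and those with 2 to 4 had 5.96 (n = 9).

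Other genes of the same machinery were also lower in het. They were chosen with earlier results of these data known and measured in the same 12 libraries, so they are not separate support. Of a further list of 86 mitosis genes, 77 were tested, and 29 fell and 0 rose in het neurites, beside 2.78% and 0.494% of all genes, with a median of -0.99. Nuf2, a kinetochore subunit, stood at 4.2, 2.89 and 5.21 CPM in WT neurites and 1.22, 0.959 and 1.24 CPM in het neurites. The highest het value lay below the lowest WT value. Nuf2 thus fell, with -1.86 ± 0.278 on the log2 scale (adjusted p = 0.0124). Foxm1, the transcription factor that activates mitosis genes, stood at 28.6, 17.8 and 25.7 CPM in WT neurites and 11.9, 9.02 and 9.44 CPM in het neurites. Foxm1 also fell, with -1.25 ± 0.192 on the log2 scale (adjusted p = 0.0124). Ncapd3, a condensin II subunit, fell with -0.95 ± 0.151, and Mastl, the Greatwall kinase, with -0.98 ± 0.161. In soma 0 of the 77 were called by edgeR, and 55 were lower at an unadjusted p under 0.05 (7.05% of all genes). The median of the 77 in soma was -0.84, and 40 fell with the replicate number as a block (3.09% of all genes). In WT neurites over soma 1 rose, the kinetochore gene Mis12 (0.60 ± 0.0985), beside 2.41% of all genes, and 15 rose with the number as a block (5.98%). The promoters of 62 of these genes held CHR in 33.9% and CCAAT in 58.1%. Leaving out 1 neurite library changed the count that fell in neurites to 4 without WT neurites 1, 53 without WT neurites 2, 37 without het neurites 1, and 0 without WT neurites 3, het neurites 2 or het neurites 3. In WT neurites over soma the count was 11 without WT neurites 2 and 1 without any other library.

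Markers of other cell types moved beside these genes, and their part in the results was not tested. Of satellite glia markers, 6 of 14 fell in het neurites, beside 2.78% of all genes, among them Fabp7, Sox10, Sox2, Apoe and Gja1. Of the 14, 2 had values above 0, up to 0.51 on the log2 scale, and 1 of these was higher at an unadjusted p under 0.05. The median of all 14 was -0.79 in neurites and -0.66 in soma. In soma 0 of the 14 were called by edgeR, and 9 were lower at an unadjusted p under 0.05 (7.05% of all genes). The summed level of the list in neurites was 2410 to 2661 CPM in WT and 1621 to 2097 in het. Without WT neurites 1 the count that fell was 1, without WT neurites 3, het neurites 2 or het neurites 3 it was 0, without WT neurites 2 it was 7 and without het neurites 1 it was 8. Of Schwann cell markers, 3 of 13 fell in neurites (Egr2, Prx and Gldn), with sums of 2297 to 2654 CPM in WT and 1650 to 2296 in het. That count was 1 without WT neurites 1, 6 without WT neurites 2, 5 without het neurites 1, and 0 without WT neurites 3, het neurites 2 or het neurites 3. Fibroblast markers had 1 of 12 lower (Fbln1), with sums of 1545 to 3454 CPM in WT and 1170 to 1940 in het. Endothelium and pericyte markers had 2 of 11 lower (Des and Myh11), with sums of 751 to 974 CPM in WT and 617 to 798 in het. Both counts were 0 without WT neurites 1, WT neurites 3, het neurites 2 or het neurites 3. Without WT neurites 2 or without het neurites 1 they were 1 for fibroblasts and 3 for endothelium and pericytes. Macrophage markers had 0 of 9 called by edgeR and 0 at an unadjusted p under 0.05. Neuronal markers had 1 of 23 higher (Uchl1), with sums of 12830 to 16380 CPM in WT and 15020 to 19250 in het, beside 0.494% of all genes higher. That count was 5 without WT neurites 2, 2 without het neurites 1 and 0 without any of the other 4 neurite libraries. Of the 23 neuronal markers, 20 were above 0 and 3 below, with a median of 0.25 beside -0.01 over all genes. With the replicate number as a block, 8 of them rose and 1 fell, beside 2.86% and 7.75% of all genes. In soma edgeR called 0 markers of any of these lists. With the replicate number as a block, 3 satellite glia, 3 Schwann cell, 2 fibroblast and 3 endothelium and pericyte markers fell in het soma. In that fit 1 macrophage marker rose and 0 neuronal markers were called, beside 3.09% of all genes lower and 0.163% higher. In WT neurites over soma, Sox2 and Sox10 of the satellite glia, Prx of Schwann cells and Des rose, and Rbfox3, Calca and Uchl1 of the neurons and Ngfr fell, beside 2.41% of all genes higher and 0.688% lower. Leaving out 1 library gave 0 to 4 satellite glia and 0 to 4 Schwann cell markers higher, 0 to 1 endothelium and pericyte markers higher, and 1 to 7 neuronal and 0 to 1 Schwann cell markers lower. The highest of each of these counts came without WT neurites 2. The satellite glia count was 0 without WT soma 1, WT soma 2 or WT neurites 1, and the neuronal count was 1 without each of those. Without WT neurites 3 the neuronal count was 2. The Schwann cell count of higher markers was 0 without WT soma 1, WT soma 2 or WT neurites 3. The endothelium and pericyte count of higher markers and the Schwann cell count of lower markers were 0 without any 1 of the other 5. With the number as a block, 11 neuronal markers fell, 3 satellite glia markers rose and 1 fell, and 1 Schwann cell marker rose and 2 fell. In that fit 1 fibroblast marker fell and 1 endothelium and pericyte marker rose, beside 5.98% of all genes higher and 3.46% lower.

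**Figure D5:**
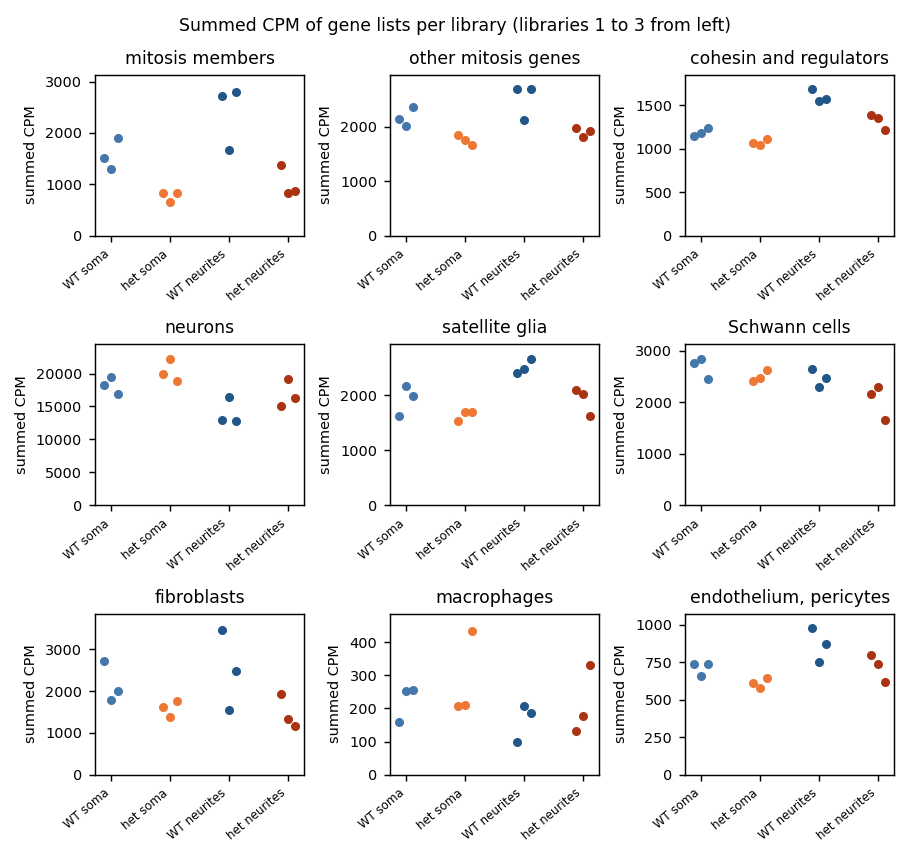
Summed CPM (y axis, from 0) of the 39 mitosis genes, of the further mitosis and cohesin lists and of each marker list, with 1 point for each of the 12 libraries, grouped along the x axis by genotype and compartment. The mitosis genes sum lower in each het neurite library than in each WT neurite library. So do the further mitosis, cohesin, satellite glia and, by a very small gap, Schwann cell lists. In neurites the sums of the other lists overlap between genotypes, and the neuronal markers do not sum lower in het.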

How the data were processed

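RNA from the neurites and soma of mouse DRG cultures was made into stranded, ribosomal RNA-depleted libraries, per the labels' protocols. The authors deposited 1 table per compartment with raw counts for each Ensembl transcript and 6 libraries, 35313 transcripts in soma and 32838 in neurites. All had at least 5 counts in at least 3 libraries. Per the file headers, the tables also hold log2 fold changes of het over WT and p-values with false discovery rates from the authors' own comparison. CASAVA 1.8.2, edgeR and mm10 (GRCm38) are named per the submitters' processing notes, and for the aligner and counter the sources used here give no name. Transcripts without a gene name held 0.57 to 0.69% of counts and were left out, as were 24 other per-sample columns.

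Counts were summed per gene over 31420 named transcripts in both tables, and genes kept by filterByExpr were scaled by TMM. The model was edgeR 4.0.16's robust quasi-likelihood fit (R 4.3.3) on all 12 libraries, each of the 4 groups having its own mean. For its 5 contrasts, p-values were adjusted over 15990 genes (Benjamini-Hochberg, threshold 0.05). An SE is the size of the log2 fold change over the square root of the F statistic. Of the steps, the edgeR fit without a block was tested on simulated data. For het over WT in those data, 87% of 2-fold changes in neurites and 92% in soma were recovered. False calls made up 8.87% of the calls in neurites and 3.54% in soma. Whether these shares hold for the sequenced libraries was not tested. In the sequenced soma libraries the median over the 39 members was -1.03 on the log2 scale, and this fit called 0 of them. DESeq2 1.42.0, limma 3.58.1 voom, other scalings, no filter, replicate blocks, subsets and leaving out each library were alternatives. The labels describe the 3 libraries of a group as separate biological repeats. The p-values rest on the spread within groups, estimated from all 4 groups together. The fit without a block treats neurites and soma of the same culture as independent. No replicate pair was the same library deposited again.

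Same-numbered libraries deviated together over all genes in WT neurites and soma (r = 0.278, 0.341 and 0.23) and in WT and het soma (0.222, 0.273 and 0.159), which were taken as paired. In het neurites and soma (0.205, 0.256 and 0.0504) and in WT and het neurites (0.142, 0.224 and -0.0373) the number 3 value was low. These were not taken as paired. That choice does not show them to be unpaired, since each culture gave both neurites and soma. The labels do not say that the numbers mark a pairing between genotypes, and the number block was fitted to all 12 libraries. All members were named. Values in every library were given for those past the threshold in any contrast, the 2 of each role with the highest mean CPM and the 3 with the smallest p per contrast. Of other lists, members past the threshold were named, or up to 4 with the smallest p, except some marker genes, which are not reported here. Members and lists were chosen with earlier results of these data known. Positions came from GENCODE M21 (GRCm38) and promoters from RefSeq (GRCm38.p6), read with Python 3.11.15, pandas 2.3.3 and matplotlib 3.10.9.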

Additional observations from a re-analysis of the deposited data

How the results depend on the processing

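Members called moved by over 1.5 times as follows. WT neurites over soma gave 3, and 9 with DESeq2, 17 with the replicate number as a block, 19 with the culture as a block and 1 in the 6 libraries alone. Het neurites over soma gave 0, and 1, 3 and 6 with DESeq2 and those blocks. Het over WT in soma gave 0, and 27 with DESeq2, 31 with the number as a block, 21 in the 6 libraries alone and 21 from all transcripts of the soma table. Het over WT in neurites gave 23, and 14 without TMM, 35 with the number as a block, and 0 both in the 6 libraries alone and from all transcripts of the neurite table. Leaving out 1 library gave 0 to 10 for WT neurites over soma and 0 to 32 for het over WT in neurites. It gave 0 for the other contrasts. Their medians ran from 0.36 to 0.76 in WT neurites over soma, 0.13 to 0.52 in het, -1.18 to -0.84 for genotype in soma, -1.43 to -1.05 in neurites and -0.45 to -0.05 for the interaction. No median changed sign. The blocks changed no call of the interaction, and same-numbered libraries correlated best with each other in 11 of 12 cases.

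Over all genes the calls in WT neurites over soma were 495 (385 higher, 110 lower), 1146 with DESeq2, 1510 and 1489 with the number and culture blocks, 40 in the 6 libraries alone and 527 without TMM (244 higher, 283 lower). In het neurites over soma they were 102, and 488, 668 and 671 with DESeq2 and the blocks. For genotype in soma they were 0, and 320, 520 and 388 with DESeq2, the number block and the 6 libraries. For genotype in neurites they were 523 (79 higher, 444 lower), 1209 with DESeq2, 1696 with the block, 0 in the 6 libraries and 292 without TMM (95 higher, 197 lower). The cause was not tested. Counts were low for Aurka (2 to 12 per library) and Smc2 (0 to 21).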

Other observations

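Brakes of the cell cycle were looked at beside the mitosis genes. Of a list of 20 CDK inhibitors and cell cycle exit genes, 19 were tested. Cdkn2c, the CDK4 and CDK6 inhibitor p18, stood at 45.3, 30.4 and 39.3 CPM in WT neurites and 21, 13.4 and 19.3 CPM in het neurites, and it fell, with -1.10 ± 0.203 on the log2 scale (adjusted p = 0.0215). Rbl1, the p107 pocket protein, stood at 55.1, 27 and 43.9 CPM in WT neurites and 25.1, 14.1 and 18.6 CPM in het neurites, and it fell with -1.13 ± 0.251 (adjusted p = 0.0353). These were the 2 genes of the list past the threshold, and 0 rose, beside 2.78% of all genes that fell and 0.494% that rose. Without WT neurites 1 or 3, or het neurites 2 or 3, 0 fell, and without WT neurites 2, 3 fell. Cdkn1a, which encodes the inhibitor p21, had a log2 fold change of 0.31 ± 0.12 in neurites (adjusted p = 0.162), short of the threshold.

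Cohesin, the ring that holds sister chromatids together and also shapes chromatin in resting cells, was tested as well. Of 8 tested cohesin genes, 1 fell in het neurites, Smc3, with -0.50 ± 0.11 (adjusted p = 0.0278), beside 2.78% of all genes. Of the 8, 7 were below 0 in that contrast, beside 51.5% of all genes, with a median of -0.29. At an unadjusted p under 0.05, 5 were lower, beside 13.2%. In WT neurites over soma 3 of the 8 rose, Rad21 (0.54 ± 0.0891), Smc3 (0.58 ± 0.111) and Nipbl (0.47 ± 0.108), beside 2.41% of all genes, and in het Rad21 rose (0.50 ± 0.0891), beside 0.544%. In het, 1 of the 8 rose without het neurites 2, and 0 rose without any of the other 5 het libraries. Without WT soma 1 or 2, or WT neurites 1, 1 of the 8 rose in WT, and without WT soma 3 or WT neurites 3, 2 rose. Smc3 was not called in het neurites without WT neurites 1 or 3, or het neurites 2 or 3. The summed level of the list was 1144 to 1232 CPM in WT soma and 1542 to 1683 CPM in WT neurites. In het it was 1047 to 1115 CPM in soma and 1212 to 1390 CPM in neurites.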
